A study of Mus musculus with 2 samples.

Results

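The subunits of the SWI/SNF and NuRD chromatin remodelling complexes, with the related CHD, ISWI and INO80 proteins, are described here as a set of 48 genes in the mouse erythroid progenitor line G1E. The members were the protein-coding genes whose symbol begins with or equals 1 of a list of remodeller names (Smarc, Arid1 and Arid2, Chd, Mta, Mbd2 and Mbd3, Gatad2, Rbbp4 and Rbbp7, Brd7 and Brd9, Pbrm1, Dpf, Actl6 and Ino80), among 43346 genes in the tables and 21461 nuclear protein-coding genes. The rule reads names and no measured value, although the set was proposed with earlier results of these data known. Smarca5-ps, Smarce1-ps1 and Ino80dos matched by symbol but are annotated as pseudogenes or a long non-coding RNA, and these 3 were left out.

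The RNA came from G1E, an immortalised line of strain C57BL/6J, labelled male, postnatal and Gata1- (lacking GATA1, the transcription factor that drives erythroid maturation). The labels define 1 group with 2 biological replicates, no treatment and no time course, and each library was made from 1 ng of total RNA above 200 nucleotides, with spike-in transcripts added. G1E is a single line, so the values describe this line and not erythroid progenitors at large. With 1 group there is no contrast of conditions, and what follows are levels, shares and the difference between a pair of libraries.

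Chromatin remodellers use ATP to slide, eject or restructure nucleosomes. BAF and PBAF, the mammalian SWI/SNF complexes, are built around SMARCA4 or SMARCA2 and mostly open chromatin. NuRD couples a CHD ATPase to histone deacetylases and methyl-CpG binding proteins, and in erythroid cells it is recruited by GATA1 through the cofactor FOG1 (Zfpm1). Most subunits are encoded by families of paralogs that replace one another in the complex, so the paralog a cell expresses sets which forms it can assemble.

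Depth, summed over all entries including spike-in transcripts, was 31649878 estimated counts for replicate 1 and 40597614 for replicate 2. Nuclear protein-coding genes took 26.9% and 18.9% of it. A count of 0 allowed up to 0.0948 and 0.0739 CPM (the count relative to depth), taking 3 counts as the limit, and all limits and intervals of counts given here cover counting error only. Gata1 itself, the gene named in the label, had 798 and 649 counts, a total over the gene that does not say which parts of it were transcribed. The 7 erythroid progenitor markers examined (Gata2, Kit, Myb, Gfi1b, Tal1, Klf1 and Nfe2) were all detected, with summed levels of 542 and 330 TPM. All 7 lymphocyte markers, and 5 of 6 neuron markers, had no count in either library, and Syt1 had 6 counts in replicate 1. The 6 granulocyte and macrophage markers summed to 0.80 and 0.32 TPM, and the 6 fibroblast and endothelial markers to 0.13 and 0.01 TPM. A list of 8 erythroid maturation genes, none of them a member, also differed between the libraries. All 8 were called higher in replicate 2, against 5.12% of all genes tested, with summed levels of 166 and 1536 TPM and ratios from 3.93 (Slc25a37) to 101 (Slc4a1). The list was chosen with earlier results of these data known, so setting it against all genes is not a test.

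Most remodeller genes were expressed in G1E, and at higher levels than the typical expressed gene. A gene was called detected at a TPM (a share of all transcripts in the library, corrected for transcript length) of at least 1 in both libraries. By this rule 43 of 48 members (89.6%) were detected, against 38.9% of nuclear protein-coding genes. The median level over all 48 members was 18.6 TPM in replicate 1 and 10.7 TPM in replicate 2 (14.7 ± 5.60 TPM, SD, n = 2). Among detected genes, the members had medians of 19.9 and 11.6 TPM, and all 8345 detected protein-coding genes had medians of 9.31 and 6.08 TPM. On transcripts that keep at least 80% of the longest annotated coding sequence of their gene, called near full-length here, both were lower, at 11.5 and 7.61 TPM for the detected members and 6.10 and 4.04 TPM for the detected protein-coding genes. The detected members ranged from the 8.89th percentile of those genes (Chd1l) to the 96.8th (Rbbp7), with 32 of 43 above the median and 7 above the 90th percentile. Those 7 were Rbbp7, Mbd2, Mta1, Gatad2b, Chd4, Arid1a and Rbbp4, of which 6 encode NuRD subunits. In RNA from a culture, fewer cells that express a gene and less RNA per cell cannot be told apart.

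TPM was higher in replicate 1 for every detected member except Dpf3. The median ratio of replicate 1 over replicate 2 was 1.62 over the detected members and 1.55 over detected protein-coding genes. The SDs of TPM include this shift, which the members shared with other genes. The order of the members was nearly the same in both libraries, with no member moving more than 6 places among 43. Summed over the set, remodeller genes took 0.908% and 0.878% of the nuclear protein-coding counts.

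**Figure D1:**
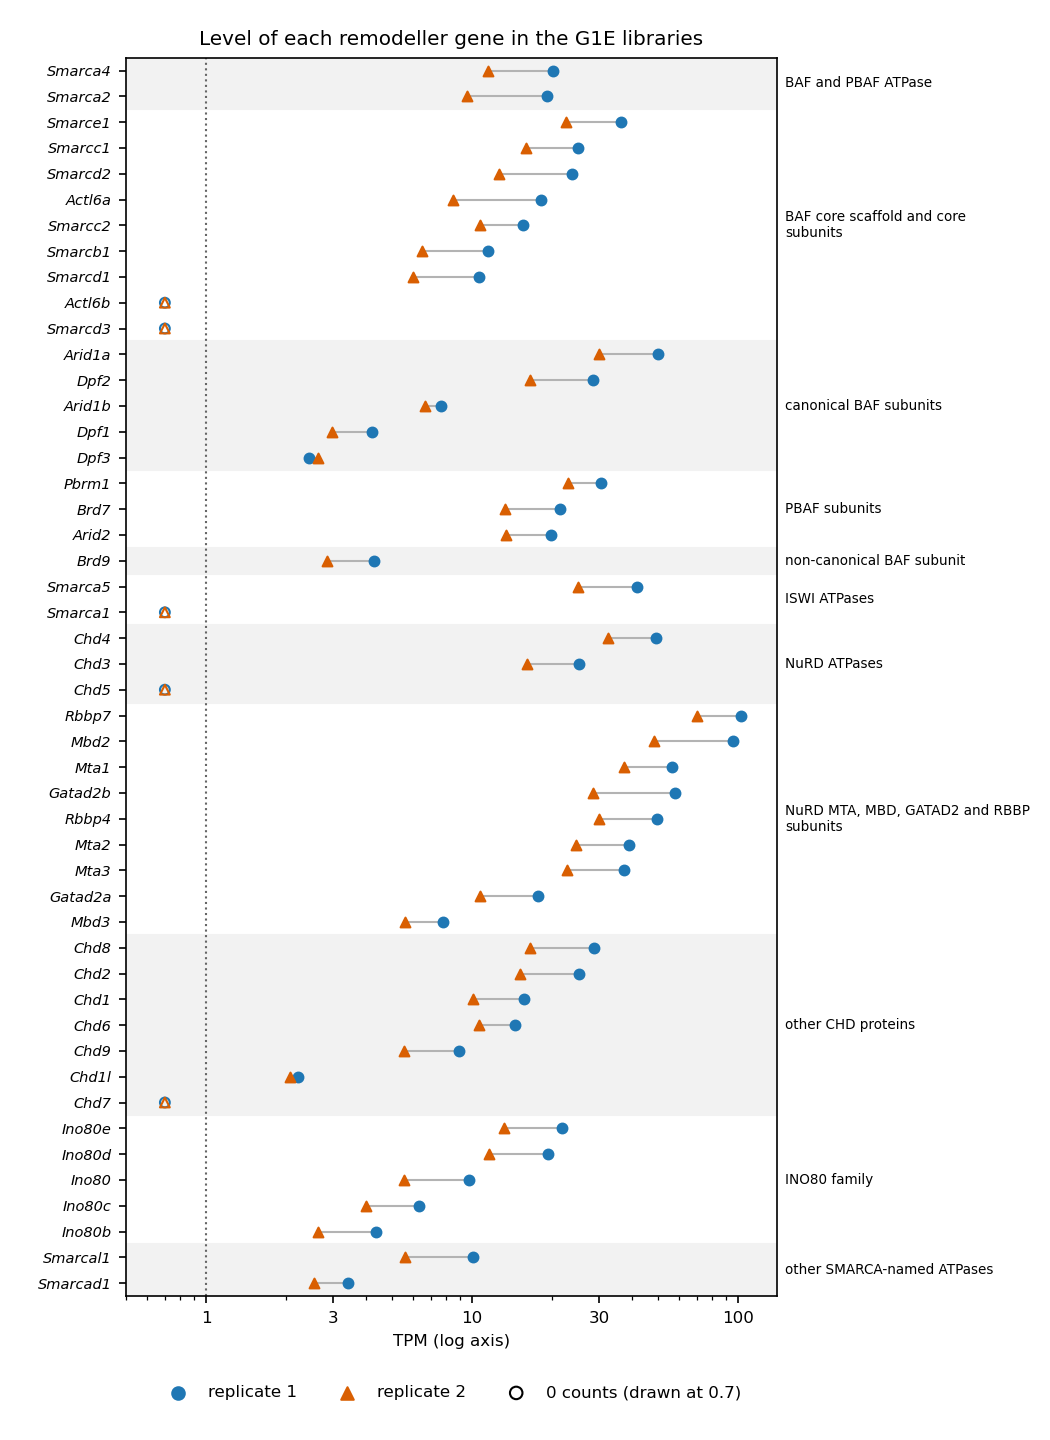
Level of each of the 48 members in TPM (log axis), grouped by role, with replicate 1 as circles and replicate 2 as triangles; the dotted line marks 1 TPM and open symbols mark genes with 0 counts, drawn at an arbitrary position. The NuRD subunits reach the highest levels, up to 102 TPM for Rbbp7 in replicate 1, and 5 members have no count in either library.

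The 5 members without a single count were Actl6b, Smarcd3, Smarca1, Chd5 and Chd7. Each of them is a paralog of a member that was detected. Actl6b encodes the actin-related subunit that replaces ACTL6A in the BAF complex of neurons, and Smarcd3 the BAF60 variant best known from heart and muscle. Smarca1 encodes SNF2L, the ISWI ATPase paralogous to SMARCA5, Chd5 the NuRD ATPase of brain and testis, and Chd7 the CHD protein mutated in CHARGE syndrome. The upper bounds of the deposited credibility intervals were 1.26 TPM or less for these genes in replicate 1 and 0.955 TPM or less in replicate 2, with the highest bounds for Actl6b. An upper bound above 1 TPM was left for Actl6b (1.26 TPM) and Smarcd3 (1.13 TPM) in replicate 1, so a level near the detection limit was not detectable as different from 0 there.

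The ATPase of BAF and PBAF came from both genes when all transcripts were added, and almost entirely from Smarca4 when nearly complete coding transcripts were counted. Smarca4 (ENSMUSG00000032187.12, chromosome 9, 21616169 to 21704230, GRCm38), which encodes BRG1, had 20.1 TPM in replicate 1 and 11.5 TPM in replicate 2. Smarca2 (ENSMUSG00000024921.12, chromosome 19, 26605050 to 26778322), which encodes its paralog BRM, had 19.1 and 9.57 TPM. On this scale Smarca4 made up 52.9% ± 2.26 (SD, n = 2) of the pair. Its share was 51.3% in replicate 1 and 54.5% in replicate 2, so the paralogs were close in both. The estimated counts behind these levels were less even: Smarca4 had 2418 and 1930 counts, and Smarca2 had 750 and 563. Most of the Smarca2 level lay on short transcripts. Its main transcript, Smarca2-214, is an 867-nucleotide retained-intron transcript and carried 28.9% and 26.3% of the gene's TPM. Near full-length transcripts carried 5.71% and 7.11% of Smarca2 and 100% of Smarca4 in both libraries. Counted on near full-length transcripts, Smarca4 made up 94.6% ± 0.320 of the pair (SD, n = 2), a basis that was added after the data were seen. Even this remainder was loosely determined, since Smarca2-209, at 0.51 and 0.68 TPM, had deposited intervals of 2.5e-07 to 0.96 TPM and 4.98e-08 to 0.718 TPM. A further long Smarca2 transcript, Smarca2-202, is annotated as a target of nonsense-mediated decay, the pathway that degrades transcripts with an early stop codon, and had 2.13 and 1.31 TPM.

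The core scaffold of BAF was expressed from 7 of its 9 genes. Smarcc1 and Smarcc2 encode BAF155 and BAF170, the scaffold on which the complex assembles. Smarcc1 had 25.01 and 15.9 TPM, and Smarcc2 had 15.5 and 10.7 TPM, so Smarcc1 made up 60.8% ± 1.38 of the pair (SD, n = 2). Both genes had all of their TPM on near full-length coding transcripts, and the share stayed at 60.8% on that basis. Among the BAF60 genes, Smarcd2, which is known for its part in granulocyte development, had 23.7 and 12.6 TPM. Smarcd1 had 10.6 and 6.02 TPM, which left Smarcd2 with 68.4% ± 0.965 of the BAF60 total (SD, n = 2). On near full-length transcripts Smarcd2 made up 55.6% ± 5.56, with 51.7% in replicate 1 and 59.6% in replicate 2. Smarce1, which encodes the HMG-box subunit BAF57, had 36.4 and 22.5 TPM, the highest level among the core subunits over all transcripts. Its main transcript was Smarce1-205, a non-coding transcript of 481 nucleotides with 42.0% and 45.8% of the TPM. The full coding transcript Smarce1-201 carried 38.9% and 32.7%. On near full-length transcripts Smarce1 had 14.2 and 7.35 TPM, below Smarcc1 and Smarcc2. Actl6a, the actin-related subunit of proliferating cells, had 18.2 and 8.45 TPM from 436 and 369 counts, and all counts of its family. Near full-length transcripts carried 28.9% and 52.1% of the Actl6a level, or 5.25 and 4.4 TPM. Retained-intron transcripts carried 33.7% and 38.8% of it.

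Smarcb1 (ENSMUSG00000000902.9, chromosome 10, 75896769 to 75921617), the tumour suppressor subunit also called SNF5 or INI1, had 11.5 and 6.48 TPM. Its level after scaling did not differ between the libraries beyond counting error (ratio 1.01, 95% interval 0.877 to 1.15), but the transcripts to which it was assigned did. Smarcb1-201 and Smarcb1-202 differ in the coding sequence by 27 nucleotides (9 codons) at chr10:75916773-75916799 on the minus strand, the 3′ end of exon 2 of 9. The segment is shown because it is the coding difference between the transcripts. Their lengths in the tables, 1660 and 1622 nucleotides, differ by 38, so they also differ outside it. It is taken from the GENCODE M21 transcript on GRCm38, 5′ to 3′, with the alternative segment in capitals and 24 transcript bases on each side in lower case.
Smarcb1-201: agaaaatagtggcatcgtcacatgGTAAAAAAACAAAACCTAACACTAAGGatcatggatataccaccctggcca
The transcript with the segment, Smarcb1-201, had 3.24 TPM in replicate 1 and 4.57 TPM in replicate 2. The transcript without it, Smarcb1-202, had 7.51 TPM (deposited interval 5.45 to 8.80) and 1.14 TPM (0.330 to 2.31). The share of the gene on Smarcb1-201 was thus 28.3% in replicate 1 and 70.5% in replicate 2, and that on Smarcb1-202 was 65.6% and 17.7%. The intervals of both shares did not overlap between the libraries, in opposite directions. The assignment rested on 106 and 207 estimated counts for Smarcb1-201 and on 240 and 50.5 for Smarcb1-202, which are totals over each transcript. Reads over the segment itself were not examined.

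The subunits that define canonical BAF were led by Arid1a and Dpf2. Arid1a (ENSMUSG00000007880.12, chromosome 4, 133679008 to 133756769), the DNA-binding subunit often mutated in cancer, had 50.1 and 30.1 TPM. Arid1b, which takes its place in a separate set of complexes, had 7.64 and 6.64 TPM. Arid1a therefore made up 84.3% ± 3.44 of the pair (SD, n = 2), and 91.9% ± 0.634 on near full-length transcripts. With coding transcripts of at least 50% of the longest coding length its share was 85.3% ± 2.26, so the rise depended on the limit. The main Arid1b transcript, Arid1b-203, carried 42.4% and 40.4% of Arid1b and was not counted as near full-length. The DPF proteins read acetylated histone tails. Dpf2, the form found in most tissues, had 28.4 and 16.6 TPM. The neuron-associated forms were lower but detected: Dpf1 had 4.20 and 2.97 TPM from 95 and 106 counts, and Dpf3 had 2.43 and 2.64 TPM from 55 and 77 counts. Dpf2 made up 77.9% ± 4.53 of the family (SD, n = 2), and 84.9% ± 0.981 on near full-length transcripts. On that basis Dpf1 had 1.82 and 1.52 TPM. Dpf3 had 1.34 and 0.7 TPM, which is under 1 TPM in replicate 2. Of the 5 neuron-associated subunits listed, Actl6b and Chd5 had no count, Dpf1 and Dpf3 were detected over all transcripts, and Ss18l1 had 0.78 and 0.57 TPM.

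PBAF was represented by all 3 of its members. Pbrm1, the polybromo subunit with its row of bromodomains, had 30.4 and 22.9 TPM, Arid2 had 19.9 and 13.4 TPM, and Brd7 had 21.5 and 13.3 TPM. Brd9, the bromodomain subunit of the non-canonical BAF complex, had 4.28 and 2.86 TPM. Brd7 thus made up 82.9% ± 0.721 of that pair (SD, n = 2), and Brd9 remained the lower gene in both libraries and on every basis tried.

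NuRD subunits had the highest levels of the set. Chd4 (ENSMUSG00000063870.8, chromosome 6, 125095981 to 125130591), its main ATPase, had 49.0 and 32.4 TPM. Chd3, the alternative ATPase, had 25.1 and 16.1 TPM, so Chd4 made up 66.4% ± 0.464 of the family (SD, n = 2). On near full-length transcripts Chd4 made up 85.5% ± 2.01, as these carried 61.8% and 68.4% of the Chd4 level and 22.9% and 20.7% of the Chd3 level. The main Chd3 transcript, Chd3-203, is annotated as a retained intron and held 23.96% and 28.3% of the gene. All 3 MTA scaffold genes, whose products bind the deacetylases, were expressed: Mta1 had 56.2 and 37.1 TPM, Mta2 had 38.8 and 24.5 TPM, and Mta3 had 37.1 and 22.7 TPM. Mta1 had the largest share, 43.3% ± 1.02 (SD, n = 2), and Mta2 and Mta3 followed with 29.2% ± 0.179 and 27.5% ± 0.844. MBD2 binds methylated CpG and MBD3 largely does not, and the proteins form separate NuRD complexes. Mbd2 had 95.7 and 48.3 TPM and Mbd3 had 7.78 and 5.60 TPM, so Mbd2 made up 91.05% ± 2.02 of the pair (SD, n = 2). Its retained-intron transcript Mbd2-204, 494 nucleotides long, held 45.2% and 44.0% of the Mbd2 level, and on near full-length transcripts Mbd2 made up 84.8% ± 1.97.

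The remaining NuRD genes encode the GATAD2 bridge between the MBD protein and the ATPase, and the RBBP histone chaperones. Gatad2b (ENSMUSG00000042390.5, chromosome 3, 90293178 to 90363407) had 57.7 and 28.4 TPM, and Gatad2a had 17.6 and 10.7 TPM. Gatad2b made up 74.6% ± 2.84 of the pair by TPM (SD, n = 2). It made up 51.4% ± 3.85 by counts, with 54.2% in replicate 1 and 48.7% in replicate 2. The single Gatad2b transcript in the tables is 1906 nucleotides long and the main Gatad2a transcript 5062, and the lead of Gatad2b by counts was not present in replicate 2. Rbbp7 (ENSMUSG00000031353.9, chromosome X, 162760402 to 162779092) was the highest member, with 102 and 70.0 TPM. Rbbp4 had 49.6 and 29.9 TPM, and both chaperones also belong to Polycomb and other complexes. Rbbp7 made up 68.7% ± 1.90 of the pair by TPM and 77.9% ± 1.62 on near full-length transcripts (SD, n = 2).

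**Figure D2:**
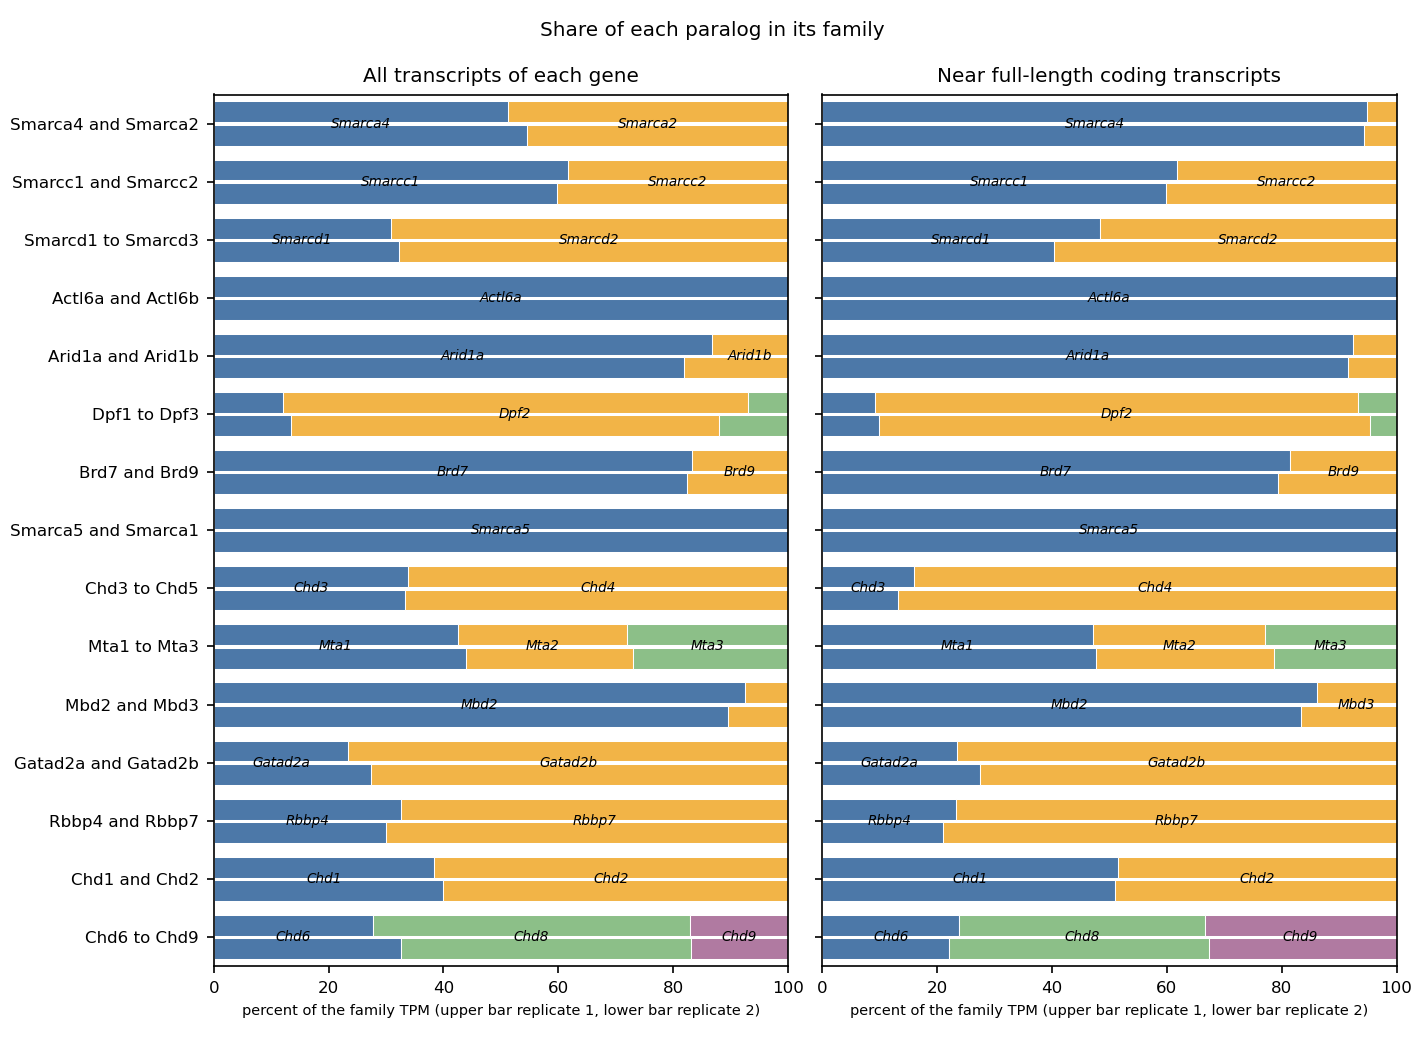
Share of each paralog in its family, in percent of the family TPM, for 15 families with replicate 1 as the upper and replicate 2 as the lower bar; the left panel uses all transcripts of a gene and the right panel near full-length coding transcripts. Smarca4 goes from 52.9% to 94.6% of its pair between the panels, whereas Smarcc1 keeps 60.8%.

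Among the ISWI ATPases, all signal came from Smarca5 (ENSMUSG00000031715.10, chromosome 8, 80698507 to 80739497). Smarca5 encodes SNF2H, the ISWI motor that spaces nucleosomes, and had 41.7 and 24.9 TPM. Its counts of 4501 and 3640 stood against 0 for Smarca1. Near full-length transcripts carried 78.4% and 77.9% of the Smarca5 level.

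Over all transcripts, Chd8 and Chd2 had the highest levels of the other CHD proteins. Chd8, a repressor of beta-catenin targets, had 28.8 and 16.5 TPM, and Chd2, a paralog of CHD1, had 25.3 and 15.2 TPM. Chd1, which is linked to transcription elongation, had 15.7 and 10.1 TPM. Chd2 made up 60.9% ± 1.203 of its pair with Chd1 by TPM and 48.8% ± 0.426 on near full-length transcripts (SD, n = 2), so Chd1 was the higher of the pair on that basis. Chd1 had 13.8 and 9.11 TPM on near full-length transcripts, above Chd2 (13.0 and 8.79 TPM) and Chd8 (11.5 and 7.61 TPM). Within the subfamily of Chd6 to Chd9, Chd8 made up 52.8% ± 3.31 by TPM and 44.0% ± 1.66 on near full-length transcripts. Chd6 had 14.5 and 10.6 TPM, with 44.1% and 35.1% of it on near full-length transcripts. Chd1l, a poly(ADP-ribose)-activated remodeller named after CHD1, was the lowest detected member at 2.22 and 2.07 TPM.

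Chd9 (ENSMUSG00000056608.9, chromosome 8, 90828352 to 91054516) had 8.93 and 5.53 TPM and was divided between the same pair of coding transcripts in opposite ways in the libraries. Chd9-202 holds 48 nucleotides (16 codons) that Chd9-201 lacks, at chr8:91036551-91036598 on the plus strand, the 3′ end of exon 34 of 40. The segment is shown, as for Smarcb1, because it is the coding difference between the transcripts, from the GENCODE M21 transcript on GRCm38, 5′ to 3′, with the segment in capitals.
Chd9-202: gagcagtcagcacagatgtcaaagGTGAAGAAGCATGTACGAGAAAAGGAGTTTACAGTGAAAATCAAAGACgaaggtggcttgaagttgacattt
Chd9-202 had 7.46 TPM (deposited interval 5.61 to 8.31) in replicate 1 and 0.25 TPM (0.0262 to 1.07) in replicate 2. Chd9-201 had 1.48 TPM (0.414 to 2.96) and 5.27 TPM (4.24 to 5.43). The transcript with the segment thus carried 83.5% of the gene in replicate 1 and 4.56% in replicate 2. The gene as a whole did not differ after scaling beyond counting error (ratio 0.959, 95% interval 0.901 to 1.02). The lengths of the transcripts in the tables, 11565 and 11517 nucleotides, differ by the 48 nucleotides of the segment. In GENCODE M21, however, Chd9-201 is 12008 nucleotides long, which differs from the tables. The estimated counts, 1811 and 84.9 for Chd9-202 and 357 and 1767 for Chd9-201, are totals over each transcript, and reads over the segment were not examined here either. Both segments begin with GT and lie at the end of their exon, as annotated.

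**Figure D3:**
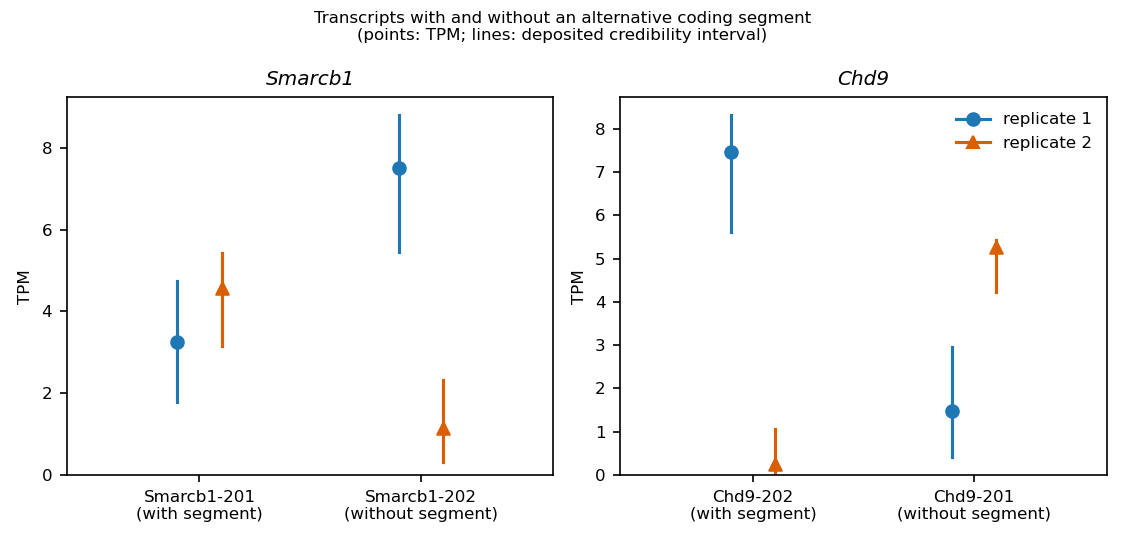
TPM of the transcripts with and without the alternative coding segment of Smarcb1 and Chd9, with replicate 1 as circles and replicate 2 as triangles; vertical lines are the deposited credibility intervals. The intervals of Chd9-202, Chd9-201 and Smarcb1-202 do not overlap between the libraries, whereas those of Smarcb1-201 do.

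Smarcb1 and Chd9 were picked for this account after their values were seen. Of 24 detected members with at least 2 near full-length coding transcripts, these 2 had shares that moved in opposite directions without overlap of the intervals, against 3.78% of 3462 detected protein-coding genes. Over transcripts of every kind, 7 of 37 members with at least 2 transcripts did so (18.9%), against 11.7% of 6303 genes. The other 5 were Arid1a, Chd6, Dpf2, Mbd2 and Pbrm1. An interval of a share was taken as the deposited TPM interval of the transcript divided by the posterior mean TPM of the gene, and it covers uncertainty of read assignment within a library, not spread between cultures.

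The INO80 complex exchanges and positions nucleosomes around promoters and replication forks. Its ATPase gene Ino80 had 9.75 and 5.53 TPM. The accessory subunit genes Ino80e and Ino80d were higher, at 21.8 and 13.2 TPM and at 19.3 and 11.6 TPM. Ino80c had 6.30 and 3.98 TPM and Ino80b had 4.34 and 2.64 TPM. Near full-length transcripts held 46.7% and 38.7% of Ino80e and 39.7% and 40.6% of Ino80d, against 70.8% and 78.1% of Ino80. The remaining SMARCA-named ATPases act outside these complexes, SMARCAL1 in restarting stalled replication forks and SMARCAD1 in heterochromatin and end resection. Smarcal1 had 10.1 and 5.60 TPM and Smarcad1 had 3.41 and 2.55 TPM.

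In the members, as in other detected protein-coding genes, the level of a gene was often spread over transcripts of several kinds. The median detected member had 72.8% of its TPM on near full-length coding transcripts in replicate 1 and 78.1% in replicate 2. Over all 8345 detected protein-coding genes the medians were 83.6% and 83.4%, and the means (72.1% and 72.3%) were closer to those of the members (69.5% and 71.2%). In 9 of 43 members this share was under 50% in both libraries, against 21.01% of detected protein-coding genes. The 9 were Rbbp4, Smarce1, Chd8, Chd3, Ino80e, Ino80d, Smarca2, Chd6 and Smarcal1. For 7 members the main transcript itself was not near full-length: Smarce1, Chd3, Ino80d, Smarca2, Arid1b, Dpf1 and Dpf3. The main transcript carried 54.5% of the gene for the median member, and 6 detected members (Gatad2b, Smarcc1, Smarcd1, Brd9, Smarcad1 and Chd1l) have a single transcript in the tables. These values of the main transcript were not taken over all detected protein-coding genes, so they are not set against them. Because TPM is per length, a short transcript gains more TPM from the same number of reads than a long one.

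**Figure D4:**
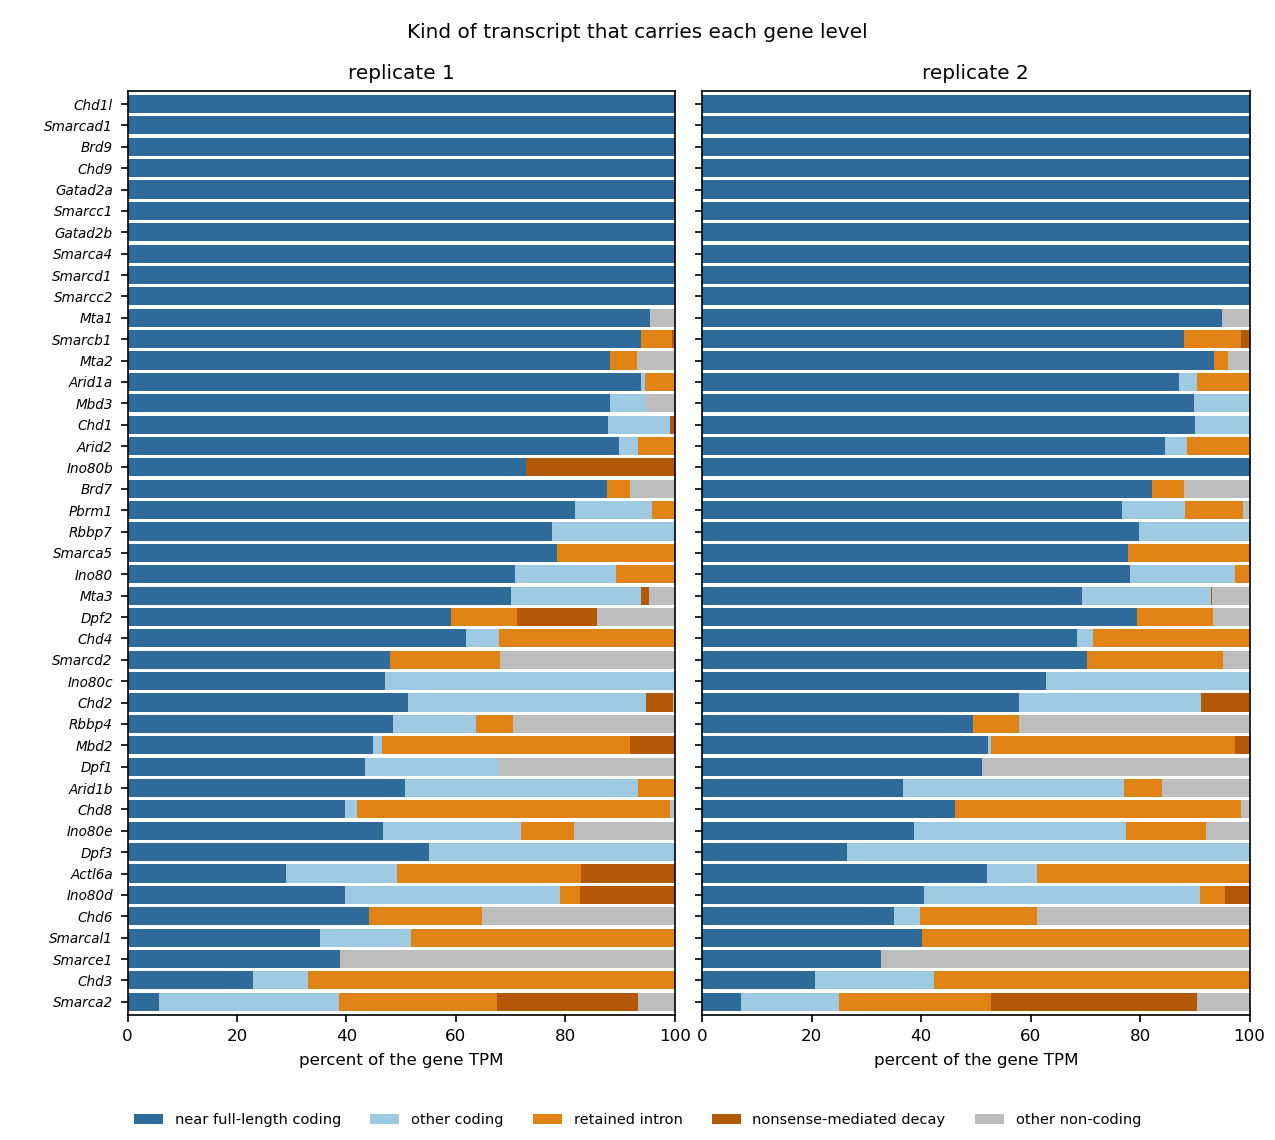
Percent of the TPM of each detected member on near full-length coding, other coding, retained-intron, nonsense-mediated decay and other non-coding transcripts, in replicate 1 (left) and replicate 2 (right). Smarca2 at the bottom has 5.71% and 7.11% on near full-length coding transcripts, and the members at the top have all of their level there.

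The remodeller genes differed little between the libraries. Ratios of replicate 2 over replicate 1 were taken on estimated counts after TMM scaling, which sets the library sizes so that the typical gene has a ratio near 1. A gene was called at a Benjamini-Hochberg adjusted p under 0.05 in an exact binomial test, two-sided, and a ratio of at least 2-fold. Of 43 members tested, 0 were called higher in replicate 2, against 5.12% of all 11902 genes tested, and 0 were called higher in replicate 1, against 2.2% (7.32% in either direction). Without the limit of 2-fold, 5 members were higher in replicate 2 (background 17.5%) and 9 were higher in replicate 1 (background 14.9%). The direction depends on the scaling, since with total counts these were 0 and 40. Total counts gave a median log2 ratio of -0.52 for all genes and -0.53 for the members. The share of all genes called with total counts and no fold limit was not counted. At an unadjusted p under 0.05 in the exact test there were 19 members. The share of all genes at that limit was not counted, so 19 cannot be called many or few. All member ratios were inside 2-fold, so no test with this limit could call one. In edgeR's negative binomial exact test 0 members were called at an adjusted p under 0.05 and 2-fold, against 2.49% of all genes tested. With no fold limit 0 members had an unadjusted p under 0.05 in it, and the share of all genes at that limit was not counted. That test compares 1 library with 1, and its common biological coefficient of variation of 26.3% was estimated from the same pair. These p-values measure the difference between a pair of libraries and say nothing of a condition.

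The sizes of the differences were small. The median log2 ratio of the members was -0.01, and that of all tested genes 0.01. Of the 43 members 42 had a ratio within 1.5-fold, against 92.6% of the 8605 nuclear protein-coding genes that had 100 counts or more in the libraries together. The median size of the log2 ratio, in either direction, was 0.10 for the members and 0.16 for those genes. Dpf3 had the largest ratio, 1.57 (95% interval 1.10 to 2.26), on 55 and 77 counts. Chd1l followed with 1.45 (1.16 to 1.83), and then, among those with an adjusted p under 0.05, Chd4 with 1.12 (1.07 to 1.16). The lowest ratio was that of Gatad2b, 0.761 (0.712 to 0.813), with an adjusted p of 8.65e-15 in the exact binomial test. Mbd2 had 0.846 (0.793 to 0.903) and Smarca2 0.843 (0.754 to 0.942). In the same pair of libraries Slc4a1, the red cell anion exchanger and an erythroid maturation gene, was 101-fold higher in replicate 2.

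**Figure D5:**
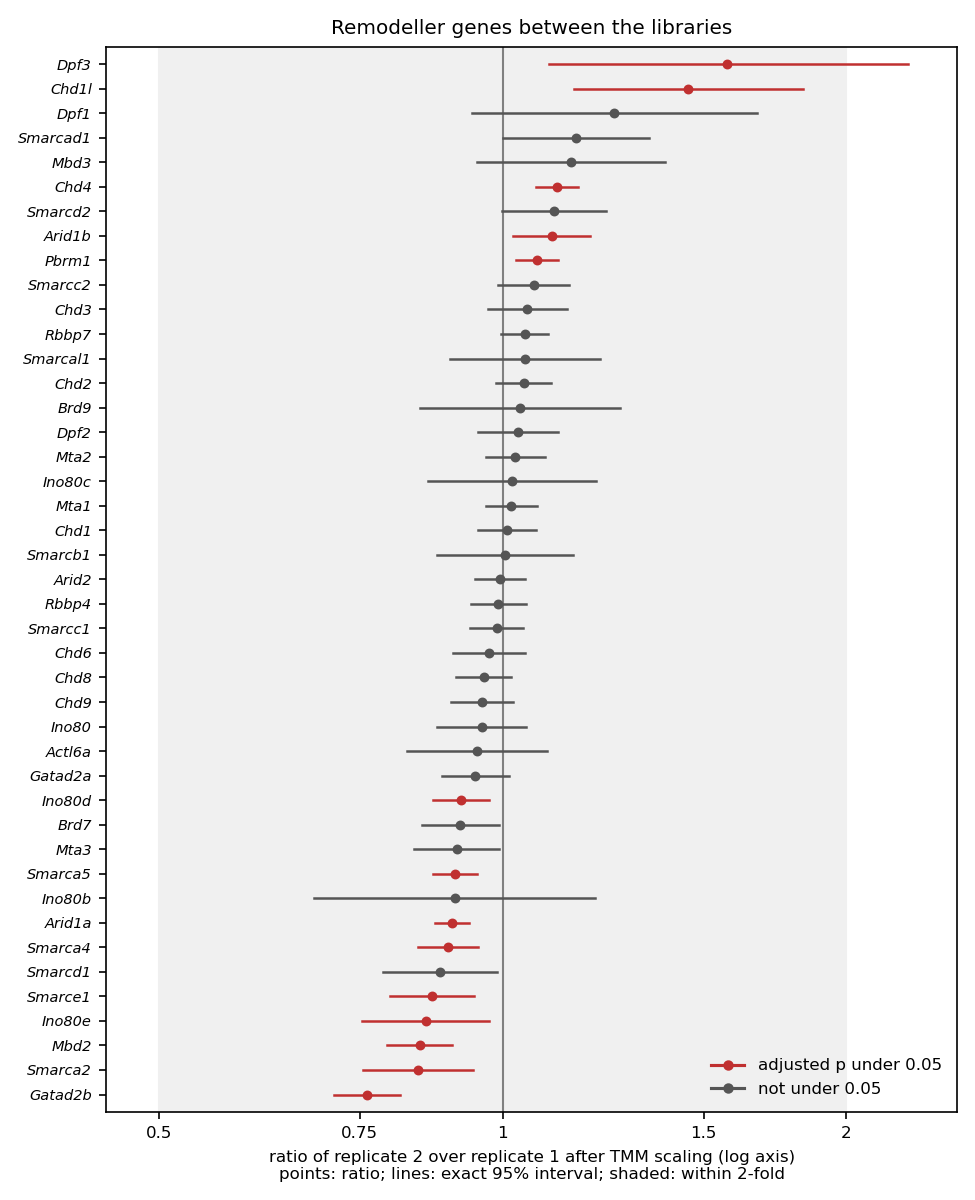
Ratio of replicate 2 over replicate 1 after TMM scaling (log axis) for the 43 detected members, with exact 95% intervals from counting error; red marks an adjusted p under 0.05 and the shaded band covers ratios within 2-fold. All points lie between 0.761 and 1.57, and Dpf3 has the widest interval.

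The proteins that work with these complexes, listed under symbols outside the rule, were also mostly expressed. Of 49 such genes 46 were detected, against 38.9% of nuclear protein-coding genes, and of 47 tested 0 were called between the libraries, against 7.32% of all genes tested. For NuRD, the highest were Zfpm1, which encodes FOG1, at 49.6 and 35.0 TPM, Cdk2ap1 at 40.3 and 24.5 TPM and Zmynd8 at 30.1 and 20.5 TPM. The lowest NuRD partner, Sall4, a factor of germ and stem cells, had no count. The highest BAF partners were Phf10, a PBAF subunit, at 39.2 and 32.0 TPM, then Bcl11a, the fetal globin repressor, at 21.3 and 12.5 TPM, and Ss18 at 10.2 and 6.59 TPM. Bcl11b, the paralog of Bcl11a known from T cells, had no count. Among ISWI partners Baz1a (74.02 and 50.6 TPM), Baz1b (44.7 and 29.99 TPM) and Baz2b (20.8 and 13.9 TPM) were highest, and Cecr2 (4.24 and 3.23 TPM) was lowest. Among the INO80, SRCAP and TIP60 subunits, Ruvbl2 (47.4 and 28.3 TPM), Uchl5 (39.2 and 22.98 TPM) and Ep400 (35.8 and 21.7 TPM) were highest, and Actr6 (3.29 and 1.33 TPM) was lowest. Of other SNF2 ATPases, Atrx (77.7 and 40.0 TPM), Hells (69.2 and 38.1 TPM) and Hltf (14.8 and 11.4 TPM) were highest and Ercc6 (3.86 and 1.82 TPM) lowest.

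Promoters of the members were mostly rich in CpG, as RefSeq gives them on GRCm38.p6 (250 bases before to 50 after the start). Of 48 members 38 matched a promoter by symbol. The 34 detected members among them had a median of 28 CG dinucleotides, against 7 over all 27025 symbols in the table. At least 15 were present in 31 of these 34, against 35.0% of all symbols. All symbols include genes that were not detected here, and detected protein-coding genes were not counted as a set. Whether the members differ from other expressed genes was therefore not tested. Of the 4 members without counts that matched, 3 also reached 15: Smarcd3 had 40, Chd5 32.5 as the mean of 2 promoters, and Actl6b 23. Actl6b therefore had a count of CG close to that of its expressed paralog Actl6a, which had 21. Smarca1 had 9, against 32 for its paralog Smarca5. The letters GATA, read on either strand, occurred in at least 1 promoter of 18 of 38 members and of 61.5% of all symbols in the table, and in 57.9% of all promoters counted singly.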

How the data were processed

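Each library came with values per gene and per transcript. Estimated counts were deposited as not normalised, per the file headers, and need not be whole. TPM and FPKM were deposited, per the file headers, in the best-fitting and the posterior mean form, both per transcript length and library size. The percent of a gene's TPM on each of its transcripts was deposited as well, per the file headers. Other deposited columns, per the file headers, hold the bounds of credibility intervals of TPM. The deposited file records name mm10 and GENCODE M4. The aligner and the quantifier were not given in the sources used here.

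GENCODE M21 (GRCm38) supplied names, transcript types and positions and matched 42462 of 43346 genes and 299 of 301 transcripts of the members. Spike-in entries and entries named by a number were left out of the genes compared. The depth, and the percents and CPM limits taken from it, include them. Counts were rounded to whole numbers and compared by a two-sided exact binomial test with the TMM library sizes as the expected ratio (edgeR 4.0.16, R 4.3.3), over genes with at least 10 counts in both libraries together, with Benjamini-Hochberg adjustment over all genes tested and exact Clopper-Pearson 95% intervals. The test was tried on simulated data with known changes. DESeq2 1.42.0 size factors, total counts, the upper quartile, no count filter, no fold limit, edgeR's negative binomial exact test, FPKM, posterior means and leaving out each library served as alternatives. The restriction to near full-length coding transcripts was chosen after the data were seen. Tables were handled with pandas 2.3.3 and NumPy 2.4.6 in Python 3.11.15, exact tests with SciPy 1.17.1 and plots with matplotlib 3.10.9.

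Depth was 31649878 and 40597614 estimated counts, and the members held 77323 and 67333 of them. Counts of 4 members (Rbbp7, Smarca5, Smarce1 and Chd2) were not whole. The members and lists were chosen with earlier results of these data known. All members are named, and of each partner list the 3 highest and the lowest by mean TPM. RefSeq supplied the promoters.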

Additional observations from a re-analysis of the deposited data

How the results depend on the processing

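The number of detected members was 43 with a limit of 0.5 TPM, with posterior mean TPM, with FPKM and without either library. The count of 0 members called between the libraries was the same with DESeq2 size factors, total counts, upper-quartile scaling and no count filter, under which member ratios ranged from 0.528 to 1.57 and so could not pass the fold limit, whatever the test. It was also 0 with edgeR's negative binomial exact test. With an adjusted p under 0.05 in the exact binomial test and no fold limit it was 14 of 43 members. Of all genes tested, 17.5% were then higher in replicate 2 and 14.9% higher in replicate 1. Scaling mattered for the direction: of all calls 69.9% were higher in replicate 2 with TMM and 27.9% with total counts (396 of them higher in replicate 2 and 1021 in replicate 1). Total counts moved the median log2 ratio of all genes to -0.52 and that of the members to -0.53. With no fold limit 0 members were then higher and 40 lower in replicate 2. The share of all genes under this setting was not counted. The median level of the members was 14.7 TPM, 14.6 with posterior means, 10.1 by FPKM, and 10.7 to 18.6 TPM when a library was left out. On near full-length transcripts it was 8.27 TPM, a basis that keeps fewer transcripts by construction and also lowered the median of all detected protein-coding genes. The same gene led by mean share in all 15 families with posterior means, FPKM, counts or either library left out. In replicate 1 alone, posterior means put Smarca4 at 49.2% of its pair. On near full-length transcripts 14 families kept their leader, and in 10 of these the leading share moved by more than 1 SD. The exception was Chd2, whose share went from 60.9% to 48.8%, and to 47.1% with coding transcripts of at least 50% of the longest coding length; the cause was not tested. By counts, 11 of the 15 leading shares moved by more than 1 SD. The median share on the main transcript was 54.5%, 51.1% with posterior means, and 47.03% to 54.8% when a library was left out. The count of 55 in Dpf3 was the lowest of a detected member. No paired analysis was possible because the labels give 1 group.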
